A study of Mus musculus with 38 samples.

Results

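Layer 6b of the mouse cortex was followed through 4 genes that mark it, Ctgf (current symbol Ccn2), Cplx3, Nxph4 and Clic5, which were 4 of 55298 genes in the bulk count table. They were picked as known markers of this layer with results of these data already known, and their levels in the single nuclei belonged to that choice (the members were selected on marker knowledge and on their KO and control values in these nuclei), so those levels are given as a description without a test. Nuclei were counted when they held unique molecular identifiers (UMIs, one per captured RNA molecule) for at least 2 of the 4 genes, which 70 of 13671 kept nuclei did.

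Layer 6b is the thin band of neurons that lies on the white matter, and it is what remains of the subplate, the first-born neurons of the cortex. Subplate neurons guide and hold the early thalamic axons before the cortical plate is innervated, most of them are lost after birth, and the survivors receive orexin and dopamine input in the adult. Ctgf is a secreted matricellular protein of the CCN family and a known target of YAP and TEAD factors, Cplx3 is a complexin that binds the SNARE complex and regulates vesicle release, Nxph4 is a secreted neurexophilin that binds neurexins, and Clic5 belongs to the chloride intracellular channel family and associates with ezrin.

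Trim28, a corepressor that directs H3K9me3 to transposable elements, was targeted for removal in every experiment used here. By the study's methods, both groups of Emx1-Cre animals, 3 months old, carried 1 copy of Emx1-Cre, which is active in cortical progenitors. The fathers also carried gtRosa. The KO animals (60, 73 and 76) had Trim28-fl on both alleles and the control animals (64, 65 and 77) had it on 1. By that account the controls had also lost 1 allele in the Cre-active lineage. A figure legend of the study instead calls the cortex controls Cre-negative, and the labels say only Control. Cortex of all 6 gave bulk RNA, and nuclei of KO 60, KO 73, control 64 and control 65 were also sequenced singly. The other experiments were NPCs, cultured neural progenitors of the Rosa26-Cas9 knock-in forebrain at embryonic day 13.5, collected 10 days after lentiviral guides against exon 3, 4 or 13 of Trim28 (6 KO) or against lacZ (2 control), and sorted nuclei of adult neurons 2 months after AAV injection into the striatum. Those nuclei came from Cas9-GFP mice or from Stop-Cas9-GFP mice that also received Syn-Cre (4 KO guide samples and 1 lacZ control each), or from Trim28-flox mice (4 labelled KO and 4 labelled control). The study used floxed mice with 1 or both alleles and vectors for Cre or nuclear GFP from the synapsin promoter, with GFP-positive nuclei sorted, and the labels do not give the alleles or vectors of each library.

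Library totals lay between 16748967 and 25345083 counts in Emx1-Cre cortex and between 8790346 and 24212358 in the other bulk libraries. Trim28 itself was lower in every KO cortex (6.08 to 8.88 CPM, counts scaled to the library total, against 19.0 to 21.4; log2 fold change -1.39, edgeR adjusted p = 0.000378) and in the NPCs (-1.82, adjusted p = 0.0310). It did not pass the test in the Cas9-GFP nuclei (-0.51, adjusted p = 0.415) or the Stop-Cas9-GFP nuclei (-0.003, adjusted p = 1.00). In excitatory nuclei of the Emx1-Cre animals it was at 6.36 and 6.72 CPM in KO 60 and KO 73 and at 8.55 and 6.996 CPM in controls 64 and 65, from 160 to 190 UMIs each. In the Trim28-flox nuclei it went against the labels, with 131 to 146 CPM in the libraries labelled KO and 25.6 to 31.6 CPM in those labelled control, so these groups are called by their labels below. Across bulk Emx1-Cre cortex the edgeR test called 216 of 16271 genes, 1.33%, at an adjusted p under 0.05 and an absolute log2 fold change above 0.5.

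The promoters are shown for the members that have an entry in the RefSeq table of GRCm38.p6, as the 250 bases before the start, 5′ to 3′ on the gene's strand. Cplx3 lies on chr9:57599992-57606281 and its window is chr9:57606282-57606531 on the minus strand. Clic5 lies on chr17:44134762-44280169, and its window, chr17:44188322-44188571 on the plus strand, falls inside that span, before a downstream start. Capitals mark the E-box CACGTG, the only one of 3 searched motifs that was found.
Cplx3: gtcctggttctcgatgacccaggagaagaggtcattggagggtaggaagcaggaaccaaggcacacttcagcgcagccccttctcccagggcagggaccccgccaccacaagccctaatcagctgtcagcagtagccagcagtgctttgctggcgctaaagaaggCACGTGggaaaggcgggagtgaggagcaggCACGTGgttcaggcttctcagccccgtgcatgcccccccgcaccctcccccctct
Clic5: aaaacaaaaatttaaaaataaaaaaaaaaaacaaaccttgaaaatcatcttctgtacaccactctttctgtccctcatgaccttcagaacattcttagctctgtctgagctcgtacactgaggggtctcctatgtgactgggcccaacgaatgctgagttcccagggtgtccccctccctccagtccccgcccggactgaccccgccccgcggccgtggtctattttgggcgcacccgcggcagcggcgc

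The Cplx3 window held 2 copies of CACGTG, a palindrome that 6.02% of the 32851 promoter windows of the same length held on either strand. Neither window held TATAAA, found on either strand of 12.4% of windows, or GGAATG, the letters of the TEAD site, found in 12.6%. Ctgf lies on chr10:24595442-24598683 and Nxph4 on chr10:127525473-127534559.

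In the single nuclei, those with UMIs for at least 2 members were rare in the KO animals. KO 60 had 3 of 3609 nuclei (0.0831%, exact binomial 95% interval 0.0171 to 0.243) and KO 73 had 1 of 3590 (0.0279%, 0.000705 to 0.155). Control 64 had 38 of 3407 (1.12%, 0.790 to 1.53) and control 65 had 28 of 3065 (0.914%, 0.608 to 1.32). Both control shares lay above both KO shares, and the intervals, which cover counting error only, did not overlap between the groups. Nuclei with a UMI for exactly 1 member were less far apart, at 82 and 77 in KO 60 and KO 73 against 156 and 93 in controls 64 and 65.

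Over all kept nuclei both KO animals were slightly deeper than both controls, but among excitatory nuclei both were shallower. Median UMIs per excitatory nucleus were 10909 in KO 60, 10398.5 in KO 73, 11857 in control 64 and 11138.5 in control 65. Median UMIs per kept nucleus were 8655 in KO 60, 8840 in KO 73, 8088 in control 64 and 8579 in control 65. With each nucleus thinned to 2200 UMIs and 1306 shallower nuclei left out (360, 193, 433 and 320 of the same 4 animals), 0 of 3249 and 0 of 3397 KO nuclei held 2 members, which allows shares of up to 0.0923% and 0.0883% by 3 counts of the total and 0.113% and 0.109% by the exact interval, against 10 of 2974 (0.336%) and 8 of 2745 (0.291%) in the controls. Among excitatory nuclei alone the counts were 3 of 2253 and 0 of 2344 in the KO animals and 36 of 1735 and 27 of 1844 in the controls. At least 3 members were held by 1, 0, 12 and 8 nuclei of KO 60, KO 73, control 64 and control 65.

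**Figure D1:**
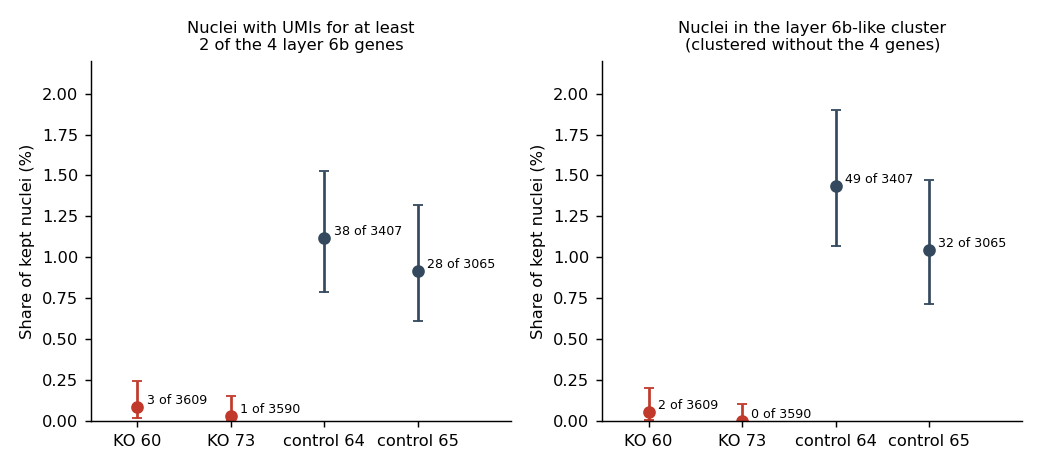
Share of kept nuclei (%) in each of the 4 Emx1-Cre animals, for nuclei with UMIs for at least 2 of the 4 genes (left) and for nuclei of the layer 6b-like cluster built without those genes (right). Points are shares with the counts beside them, bars are exact 95% binomial intervals, and both control animals lie above both KO animals in each panel.

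Within the 70 nuclei, 49 held UMIs for 2 members, 14 for 3 and 7 for all 4. A Ctgf UMI was present in 69 of them, a Clic5 UMI in 44, a Cplx3 UMI in 30 and a Nxph4 UMI in 25. Ctgf with Clic5 was the commonest pair, in 43 nuclei, followed by Ctgf with Cplx3 in 30 and Ctgf with Nxph4 in 24. None of the 70 carried a barcode that 2 libraries shared, of which KO 60 and control 64 had 20 and the other pairs of libraries 0 to 6. Scrublet scored 3 of the 70 as doublets, 2 in control 64 and 1 in control 65.

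Clustering of the nuclei with the 4 genes taken out still grouped most of them. One cluster of 83 nuclei had Moxd1, Adgrg6, Drd1, Inpp4b and Svil among its top 10 genes, with Ctgf and Clic5 at the head although neither had been used, and 9 of 10 other layer 6b markers stood above the remaining nuclei in it, so it is called layer 6b-like. Of its nuclei 54 (65.1%) held at least 2 members. Among other clusters the share was 9 of 226 near-projecting-like nuclei (3.98%) and 2 of 701 layer 6 corticothalamic-like nuclei. It was 0 of 2585 layer 2/3-like, 0 of 1171 astrocyte-like and 0 of 1335 oligodendrocyte-like nuclei, cells that should lack this combination, although the oligodendrocyte-like nuclei were shallower, with a median of 2378 UMIs against 12106 in the layer 6b-like nuclei.

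The layer 6b-like cluster held 2 nuclei of KO 60, none of KO 73, 49 of control 64 and 32 of control 65. Its other leading genes themselves differed between the groups, as given below, so nuclei of layer 6b that had lost those transcripts would have been placed elsewhere, and fewer nuclei and less RNA in each cannot be told apart from its size. Of the 3 KO nuclei of animal 60 with 2 members, 1 was in this cluster and 2 were layer 6 corticothalamic-like. The single nucleus of KO 73 was leptomeningeal-like and shallow, with 1793 UMIs. In the controls 31 of 38 and 22 of 28 were in the layer 6b-like cluster, and 4 and 5 were near-projecting-like. A split by genotype was not particular to the layer 6b-like cluster, the animals having been merged without correction between them. One layer 2/3-like cluster held 488, 592, 22 and 67 nuclei of KO 60, KO 73, control 64 and control 65. Another held 18, 8, 319 and 365, and the remaining one 210, 271, 128 and 97.

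**Figure D2:**
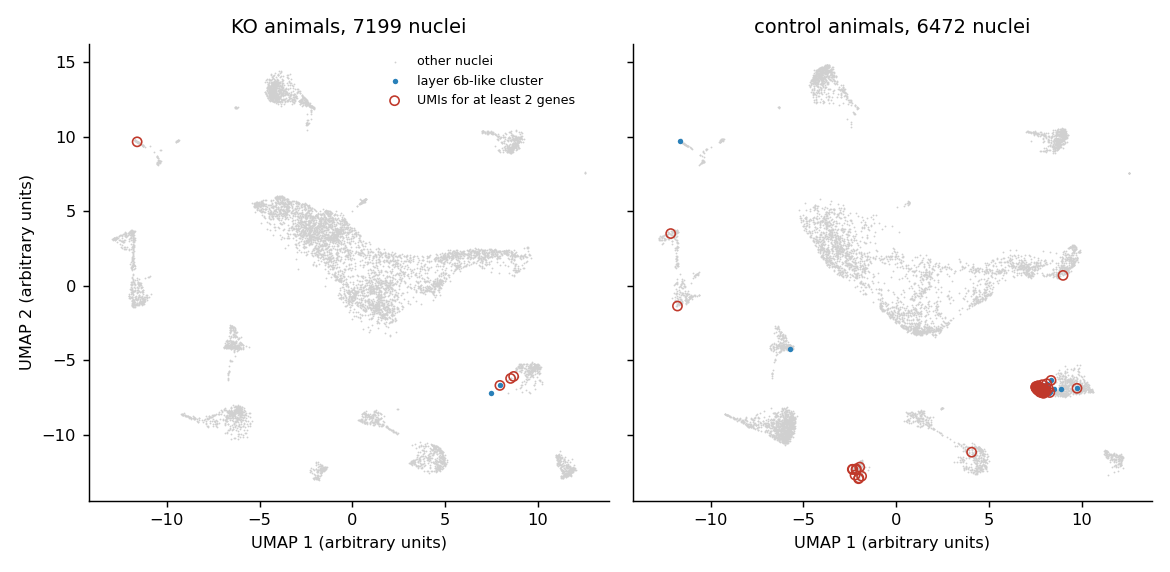
UMAP of the kept nuclei (arbitrary units), 7199 of the KO animals on the left and 6472 of the control animals on the right, computed without the 4 genes. Blue points are the layer 6b-like cluster and red circles are nuclei with UMIs for at least 2 of the 4 genes, which gather at one edge of the layer 6 nuclei in the controls and are scarce there in the KO animals.

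Nuclei of the other layer 6-like clusters were also fewer in the KO animals. Layer 6 corticothalamic-like nuclei numbered 161 and 77 in KO 60 and KO 73 against 222 and 241 in controls 64 and 65, and claustrum and layer 6 intratelencephalic-like nuclei 71 and 22 against 152 and 168. Near-projecting-like nuclei, which also carry Ctgf, numbered 67 and 47 against 67 and 45, and layer 5 extratelencephalic-like nuclei 131 and 100 against 60 and 79. Oligodendrocyte-like nuclei, the cells of the white matter below layer 6b, made up 6.59% and 4.85% of KO nuclei and 16.9% and 11.3% of control nuclei. Taken as a share of the 3 layer 6-like clusters together, a comparison added after seeing the data, the nuclei with 2 members were 3 of 234 (1.28%) and 0 of 99 in the KO animals, the latter allowing up to 3.03% by 3 counts of the total and 3.66% by the exact interval, against 32 of 423 (7.57%) and 22 of 441 (4.99%). Whether the depth of the dissection differed was not tested.

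Ctgf showed the widest gap of the 4 genes when its UMIs were summed over all kept nuclei of an animal. It had 63 UMIs in KO 60 (1.91 CPM) and 31 in KO 73 (0.935 CPM), against 428 in control 64 (14.4 CPM) and 181 in control 65 (6.23 CPM). The log2 difference between KO and control was -2.86 ± 0.45 (SE, n = 2 and 2). Both controls stood above both KO animals, and the controls differed between themselves by more than the KO animals did.

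Clic5 and Nxph4 stood in the same order at lower counts. Clic5 had 18 and 13 UMIs in KO 60 and KO 73 and 70 and 51 in controls 64 and 65, a log2 difference of -2.13 ± 0.33. Nxph4 had 3 and 5 UMIs against 22 and 14, -2.31 ± 0.50, so its KO values rest on very few molecules. Neither gene had overlapping groups.

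Cplx3 did not share this gap over all nuclei. It had 41 UMIs in KO 60, 44 in KO 73, 56 in control 64 and 41 in control 65, with CPM of 1.25, 1.33, 1.89 and 1.41 and a log2 difference of -0.37 ± 0.28. The KO animals were below the controls on the CPM scale by a margin within the counting intervals. Among excitatory nuclei alone Cplx3 had 6 and 16 UMIs against 24 and 24 (-1.39 ± 0.46), beside Ctgf at 43 and 17 against 383 and 145 (-3.40 ± 0.57), Nxph4 at 2 and 2 against 18 and 12 (-3.09 ± 0.54) and Clic5 at 18 and 11 against 56 and 47 (-2.09 ± 0.34). In that class all 4 genes were lower in both KO animals than in both controls. They were chosen with these values known. The share of all genes that order the animals alike is not given, here or over all nuclei.

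**Figure D3:**
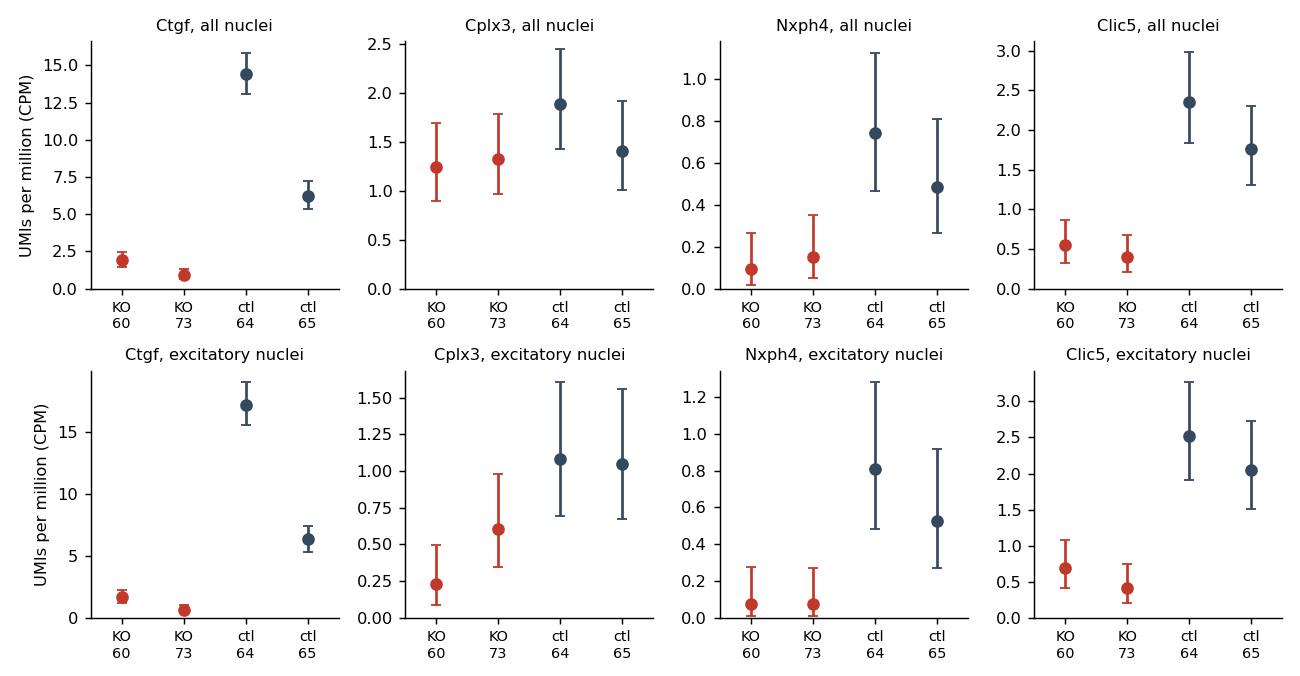
UMIs of each gene as CPM of the animal's total in each Emx1-Cre animal, summed over all kept nuclei (top row) and over excitatory nuclei (bottom row), with exact 95% Poisson intervals that cover counting error only. Each panel has its own axis from 0, and Ctgf, Nxph4 and Clic5 lie higher in both controls than in both KO animals in both rows.

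The sources of the molecules set Cplx3 apart. In the controls 69.6% of Ctgf, 72.2% of Nxph4 and 52.1% of Clic5 UMIs came from layer 6b-like nuclei, but 33.0% of Cplx3 UMIs did, while 40.2% came from Lamp5 neurogliaform-like interneurons, a GABAergic type outside the Emx1 lineage. In these interneurons Cplx3 had 29, 26, 26 and 13 UMIs in KO 60, KO 73, control 64 and control 65 (41.1, 30.1, 40.4 and 29.3 CPM), a log2 difference of -0.02 ± 0.34 with overlapping groups. They gave 64.7% of the Cplx3 UMIs of the KO animals.

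The KO molecules of the other genes came mostly from outside the layer 6b-like cluster. Of Ctgf UMIs in the KO animals 1.06% were in layer 6b-like, 30.9% in layer 6 corticothalamic-like, 23.4% in near-projecting-like and 17.0% in leptomeningeal-like nuclei, and 64.5% of their Clic5 UMIs were in near-projecting-like nuclei. Among the layer 6 corticothalamic-like nuclei Ctgf had 29, 0, 24 and 6 UMIs in the 4 animals, and 12 of the 29 were in 1 nucleus of KO 60. Leptomeningeal-like nuclei carried Ctgf at 181 and 150 CPM in the KO animals and 181 and 288 CPM in the controls, from 7, 9, 11 and 18 UMIs. Near-projecting-like nuclei had 9 and 13 Ctgf UMIs against 23 and 13 (-0.62 ± 0.43) and 13 and 7 Clic5 UMIs against 15 and 9 (-0.20 ± 0.45), and their groups lay much closer together.

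**Figure D4:**
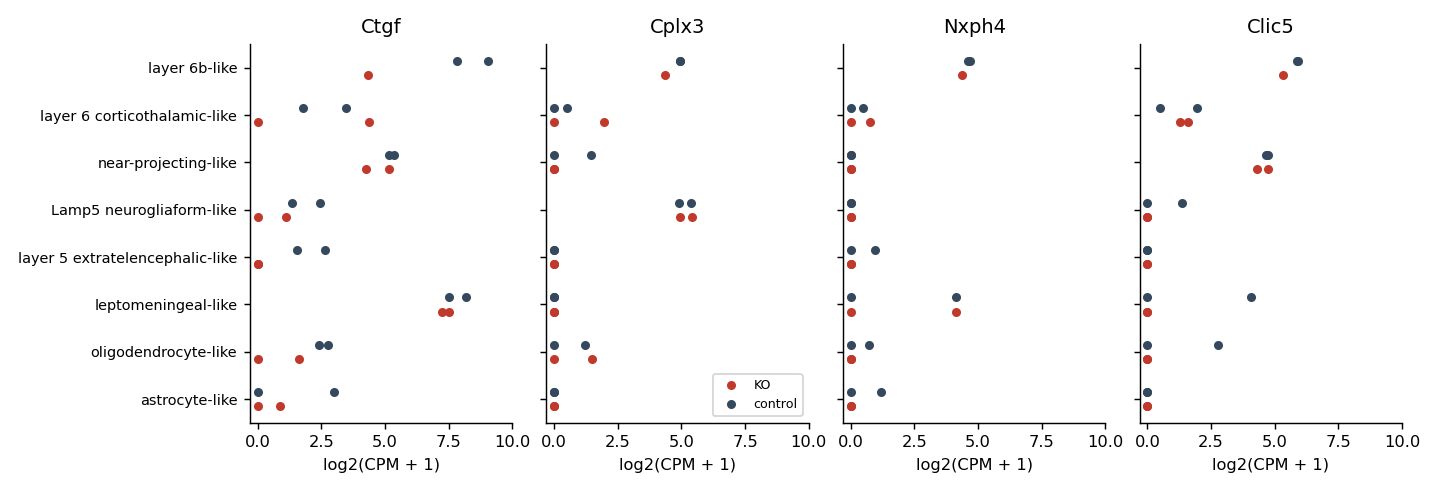
Level of each gene, log2(CPM + 1), in 8 named clusters, 1 point for each animal with nuclei in the cluster (red KO, dark control). Ctgf is highest in the layer 6b-like and leptomeningeal-like nuclei, and Cplx3 is as high in Lamp5 neurogliaform-like as in layer 6b-like nuclei of the controls.

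Single control nuclei held many Ctgf molecules. In the layer 6b-like cluster Ctgf was seen in 45 of 49 nuclei of control 64, with a median of 4 UMIs and at most 20 in a nucleus, and in 25 of 32 nuclei of control 65, with a median of 3 and at most 10. Its level there was 527 CPM in control 64 and 226 CPM in control 65, whose Poisson intervals did not overlap, whereas Cplx3 (29.9 and 29.6 CPM), Nxph4 (24.9 and 23.2 CPM) and Clic5 (58.2 and 59.1 CPM) were nearly equal in the pair. Over all clusters, at least 5 Ctgf UMIs were found in 1 nucleus of KO 60, none of KO 73, 23 of control 64 and 11 of control 65. The 2 layer 6b-like nuclei of KO 60 together held 1 UMI of each of Ctgf, Cplx3 and Nxph4 and 2 of Clic5.

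The layer 6b-like cluster was also left out of the excitatory nuclei, a comparison added after seeing the data. It held 2 and 0 nuclei of KO 60 and KO 73 against 49 and 32 of controls 64 and 65. Leaving it out therefore had to take mainly control molecules and shrink the gap, and no conclusion is drawn from that. Ctgf was then at 42 and 17 UMIs in KO 60 and KO 73 against 66 and 38 in controls 64 and 65 (-1.12 ± 0.45). Clic5 was at 16 and 11 against 21 and 19 (-0.87 ± 0.37), and Cplx3 at 5 and 16 against 6 and 10 (0.08 ± 0.62), while Nxph4, at 1 and 2 against 3 and 1, was too low to be fitted.

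Over the 25 clusters with at least 50 nuclei, the gene whose level most resembled that of Ctgf was Clic5 (Pearson's r = 0.847 across clusters), followed by Nxph4 (0.821) and Mfap5 (0.786). Nxph4 was closest to Adra2a, an adrenergic receptor (0.885), Mapk13 (0.872) and Ctgf, and Clic5 was closest to Ctgf, Trh, the precursor of thyrotropin-releasing hormone (0.843), and Nxph3 (0.811). Cplx3 was closest to Rasef (0.826), Cndp1 (0.792) and A330070K13Rik (0.772), and its r with Ctgf was 0.370 and with Clic5 0.365. The clusters share libraries and some hold few nuclei, and these values describe the pattern only.

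A list of 10 other layer 6b genes was tested across the 4 animals in excitatory nuclei, where the test called 1026 of 16256 genes (6.31%), 457 of them (2.81%) lower. These are the same nuclei in which the 4 genes were chosen, so they are no independent support. Of the 10 genes 5 fell, none rose, and all 10 had a negative log2 fold change, with a median of -0.79 against 0.008 over all genes tested. DESeq2 also called 5 of them. Of markers of other layers in these nuclei, 4 of 5 for layer 6 corticothalamic neurons were called lower. Their median was -0.94, below that of the 10 layer 6b genes. For layer 4/5 Rorb neurons 2 of 4 were called lower. None of 4 was called for near-projecting neurons (median -0.31) or for claustrum and layer 6 intratelencephalic neurons (median -0.59). All markers of these lists of other layers had negative log2 fold changes. Those of layer 2/3 (median 0.13, 1 of 4 negative) and layer 5 extratelencephalic neurons (median -0.13, 2 of 4 negative) did not, and none was called.

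Moxd1, a monooxygenase-like protein of the dopamine beta-hydroxylase family, had 14 and 16 UMIs in KO 60 and KO 73 against 70 and 60 in controls 64 and 65 (-2.38 ± 0.29, edgeR adjusted p = 0.0133). Drd1, the dopamine D1 receptor, had 32 and 17 against 98 and 65 (-2.0 ± 0.37, adjusted p = 0.0306), and Inpp4b, a phosphoinositide phosphatase, 939 and 791 against 1524 and 1154 (-0.90 ± 0.16, adjusted p = 0.0284). Cdh18, a cadherin, and Zfpm2, a cofactor of GATA proteins, were lower by log2 fold changes of -1.50 ± 0.15 (adjusted p = 0.00791) and -0.79 (adjusted p = 0.0310). Moxd1, Drd1 and Inpp4b each had fewer UMIs in either KO animal than in either control. The share of all genes that order the 4 animals alike is not given, so nothing is read from the order. In these nuclei 4553 of 16256 genes had an unadjusted edgeR p under 0.05.

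The calls depended on single animals and on the layer 6b-like cluster. Without KO 60 4 of the 10 genes were called, without KO 73 2, and without control 64 or control 65 none, when no gene at all was called although 6326 and 4667 had an unadjusted p under 0.05, among them 7 of the 10 in each case. The log2 fold change of Moxd1 stayed between -2.48 and -2.26 in these fits. Moxd1, Drd1 and Inpp4b are among the top genes of the layer 6b-like cluster, which held mostly control nuclei. Leaving that cluster out therefore had to shrink their gap. Without the layer 6b-like cluster Moxd1 had 12 and 16 UMIs against 6 and 7 (0.79, adjusted p = 0.287, in a fit that called 7.33% of genes, 3.15% lower) and Inpp4b a log2 fold change of -0.11, while Drd1 (-1.45, adjusted p = 0.0467), Cdh18 (-1.32, adjusted p = 0.0058) and Zfpm2 (-0.72, adjusted p = 0.0284) were still called lower. Layer 6 corticothalamic markers moved beside them, 4 of 5 being called lower in excitatory nuclei, and their part in the result was not tested.

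Over all nuclei, where the test called 713 of 17400 genes (4.1%), 318 of them (1.83%) lower, 2 of the 10 genes fell, Cdh18 (-1.29 ± 0.14, adjusted p = 0.0107) and Zfpm2 (-0.64 ± 0.13, adjusted p = 0.0447), and 9 had a negative log2 fold change. Oligodendrocyte markers were lower there too, 3 of 5 by the test. Among excitatory nuclei with at least 2 members, the KO animals had only the 3 nuclei of KO 60, so values there are given without a test. The UMIs are sums over those 3 nuclei and over the 36 and 27 such nuclei of controls 64 and 65. They therefore follow the number of nuclei and are no level per nucleus. Moxd1 was at 0 UMIs against 45 and 45, Inpp4b at 1 against 526 and 484 and Tmem163 at 2 against 154 and 139. Hecw2 and Sgcz, which the study names for excitatory neurons, had 30 UMIs against 357 and 304 and 57 against 695 and 503 in the same nuclei. With 3 nuclei against 36 and 27, these sums show no fall of either gene.

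The excitatory control nuclei with at least 2 members shared genes that the rule did not use. Compared with the other excitatory nuclei of the same animal, an account added after seeing the data, the genes with the highest log2 ratio, taken as the lower of the values of control 64 and control 65, were Moxd1 with 5.69, Svil with 5.31, 4930555F03Rik with 4.89, Inpp4b with 4.78 and Vwc2 with 4.28, of 4988 genes with enough molecules. Fbxl7, Atp10a, Cpne2, Nxph3, Nhs, Ror1, Tmem163, Adgrg6, Lpar1 and Drd1 followed, the last at 3.62. Moxd1, Inpp4b, Nxph3, Tmem163, Lpar1 and Drd1 are layer 6b markers of the list above.

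Bulk cortex did not show the gap seen in the nuclei. Ctgf was at 12.3, 7.24 and 13.1 CPM in KO 60, 73 and 76 and at 9.98, 15.4 and 9.51 CPM in controls 64, 65 and 77, with means of 10.9 ± 3.17 and 11.6 ± 3.30 (SD, n = 3 each). The groups overlapped, with KO 73 the lowest and control 65 the highest. The log2 fold change was -0.10 ± 0.23 (SE, 95% interval -0.61 to 0.40, edgeR adjusted p = 0.99), and it was 0.13 without KO 73 and 0.14 without control 65. In bulk tissue fewer cells of a type and less RNA per cell cannot be told apart.

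Cplx3 was at 10.5, 8.01 and 10.6 CPM in the KO cortices and at 10.6, 13.1 and 6.44 CPM in the controls. The groups overlapped and the log2 fold change was -0.05 ± 0.22 (95% interval -0.54 to 0.43). Nxph4 had 2, 2 and 8 counts against 6, 8 and 8, too few to enter the test.

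Clic5 was the member whose bulk groups did not overlap. It was at 12.9, 10.4 and 12.05 CPM in KO 60, 73 and 76 and at 13.9, 14.0 and 16.9 CPM in controls 64, 65 and 77, a log2 fold change of -0.34 ± 0.14 (95% interval -0.64 to -0.044). All 3 KO values lay below all 3 control values, but the difference did not pass the test over all genes (edgeR adjusted p = 0.43). The share of all genes whose groups did not overlap is not given, so nothing is read from the order. An unadjusted edgeR p under 0.05 was found for 1488 of 16271 genes in this cortex (9.15%). None of the 3 members tested was called in bulk cortex by edgeR, and none by DESeq2, with 1 of them under an unadjusted p of 0.05. Endothelial markers summed to 169 to 205 CPM in the KO cortices and 210 to 250 CPM in the controls, and their part in the Clic5 values was not tested.

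**Figure D5:**
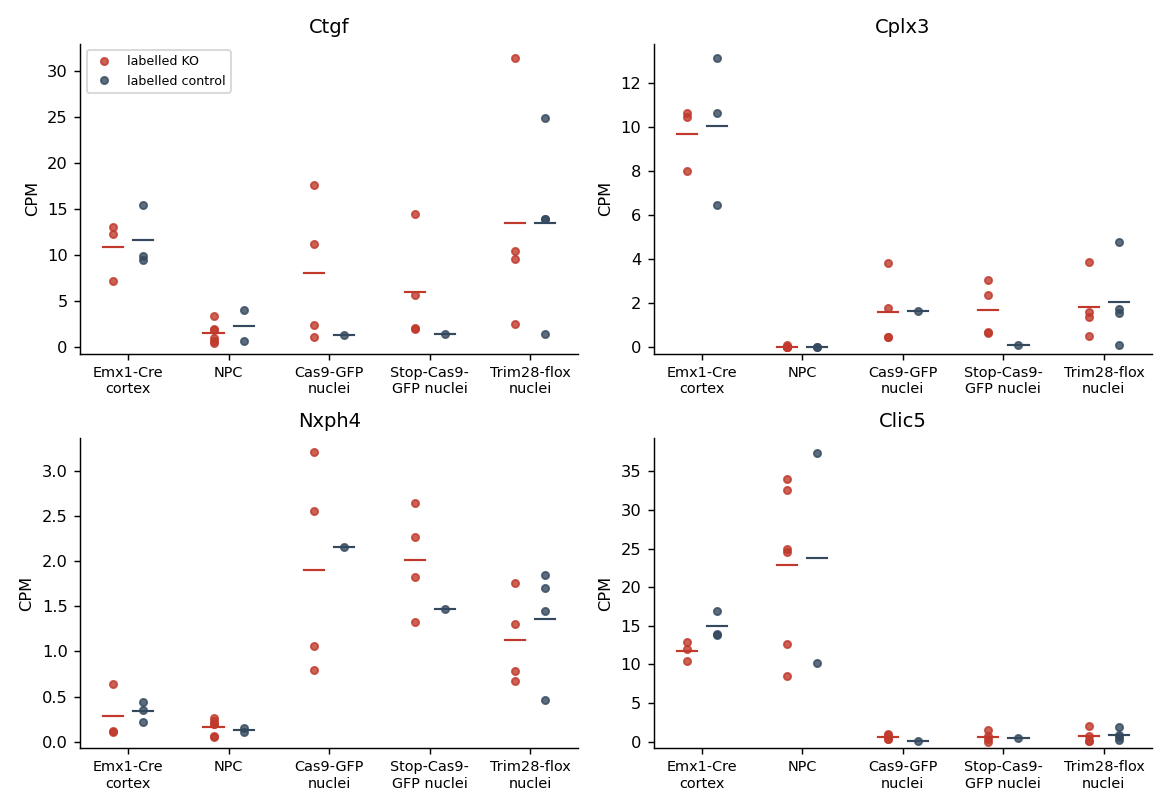
Level (CPM) of each gene in every bulk library of the 5 experiments, with horizontal lines at the group means, red for libraries labelled KO and dark for those labelled control. Ctgf and Cplx3 overlap between the groups in Emx1-Cre cortex, Clic5 does not, and the levels of Ctgf in the adult nuclei spread widely within a group.

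The animals that gave no nuclei went the other way for Ctgf and Cplx3. KO 76 had 13.1 CPM of Ctgf against 9.51 in control 77, and 10.6 CPM of Cplx3 against 6.44, with 8 counts of Nxph4 in each. Clic5 was at 12.05 CPM in KO 76 and 16.9 in control 77. The library of KO 76 stood apart in composition, with a normalization factor of 0.754.

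In the 4 animals with both kinds of data, the mean of Ctgf in the KO animals was 76.7% of that in the controls in bulk cortex and 13.8% over all nuclei. Clic5 was at 83.8% in bulk and 22.8% in nuclei, Nxph4 at 33.2% and 19.8%, and Cplx3 at 77.8% and 78.0%. The bulk value of Nxph4 rests on 2 and 2 counts against 6 and 8. Bulk Ctgf overlapped between the groups, with KO 60 (12.3 CPM) above control 64 (9.98 CPM). The bulk values are of whole-tissue RNA and the nuclear values of RNA kept in the nucleus. Markers of leptomeningeal cells, which carried Ctgf in the nuclei, summed to 9.72 to 17.1 CPM in the KO cortices and 22.4 to 27.6 CPM in the controls, and oligodendrocyte markers to 2097 to 2269 against 2610 to 2816 CPM. Layer 6 corticothalamic markers overlapped, at 98.7 to 131 against 106 to 133 CPM.

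Per kilobase of transcript in control cortex, Ctgf averaged 4.07 CPM, Cplx3 3.41, Clic5 1.70 and Nxph4 0.201. Ctgf, from 3.32 to 5.40, and Cplx3, from 2.18 to 4.44, overlapped across the 3 controls. Clic5 and Nxph4 lay below them without overlap.

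The list of 10 other layer 6b genes gave no call in bulk cortex by edgeR or DESeq2, with 3 genes under an unadjusted p of 0.05. Its median log2 fold change was -0.15 against 0.007 over all genes, and 7 of the 10 were negative. Lpar1, a lysophosphatidic acid receptor that oligodendrocytes also express, had the smallest p (-0.44 ± 0.10, adjusted p = 0.068), and Cdh18 had -0.22 ± 0.17.

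Families and partners of the 4 genes were examined in the same way. In bulk cortex none of the 3 tested CCN genes, 2 complexins, 3 neurexophilins, 2 CLIC genes, 12 Hippo-YAP genes, 10 SNARE partners, 6 neurexins and neuroligins or 6 ezrin partners was called by edgeR or DESeq2, with 1, 1, 1, 1, 1, 2, 0 and 0 genes under an unadjusted p of 0.05. Nov, the CCN gene with the highest level, had a log2 fold change of 0.40 ± 0.11 (adjusted p = 0.131), Cplx2 -0.002 ± 0.11, Nxph1 -0.04 ± 0.10 and Clic4 -0.23 ± 0.09. Of the partners with the highest levels, Nf2 and Stk4 of the Hippo pathway had log2 fold changes of -0.01 and 0.14, the SNARE gene Snap25 -0.16 and the calcium sensor Syt1 -0.08, the neurexin Nrxn3 0.03, and the membrane linkers Rdx and Ezr -0.05 and -0.20, and second in their families came Wisp1 at 0.45, Cplx1 at -0.24, Nxph3 at 0.13 and Clic1 at -0.26. In the excitatory nuclei Nxph1 fell (-0.92 ± 0.16, adjusted p = 0.0266), Vamp2, the vesicle SNARE, rose (0.80 ± 0.10, adjusted p = 0.0138), and Syt1 fell (-0.53 ± 0.12, adjusted p = 0.0496). Over all nuclei Clic4 fell (-0.95 ± 0.17, adjusted p = 0.0340) and Vamp2 rose (0.74 ± 0.10, adjusted p = 0.0176), and no CCN gene, complexin, Hippo-YAP gene, neurexin or ezrin partner was called in either.

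In the NPCs, 32 of 16469 genes (0.194%) were called, or 136 with the series of the culture numbers as a replicate block, and the members split into 2 that were expressed and 2 near 0. Ctgf was lowest at 0.533, had a median of 1.44 and was highest at 3.39 CPM in the 6 KO cultures, against 4.08 and 0.647 CPM in the controls (-0.57 ± 0.76, adjusted p = 1.00). Clic5 was lowest at 8.44, had a median of 24.8 and was highest at 34.0 CPM, against 10.2 and 37.4 CPM (-0.06 ± 0.58). Both genes overlapped between the groups and split by the series of the culture numbers in the labels instead, Ctgf being higher in each culture of the lower-numbered series than in its partner with the same guide and Clic5 lower in each. Cplx3 had no read in 7 of 8 cultures and Nxph4 had 1 to 5 counts. Among the families and partners 1 gene was called, Tead4, a partner of YAP, which rose (2.33 ± 0.32, adjusted p = 0.0310; DESeq2 also called 1 gene of that list).

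In the nuclei of adult neurons sorted after injection into the striatum the members varied widely among animals. Striatal markers summed to 3675 to 6002 CPM in the Trim28-flox nuclei. Ctgf was at 10.5, 2.56, 31.4 and 9.60 CPM in the libraries labelled KO and at 14.0, 24.9, 1.41 and 14.0 CPM in those labelled control, a log2 fold change of 0.003 ± 0.74. Cplx3 ranged from 0.5004 to 3.89 and from 0.0913 to 4.77 CPM (-0.13 ± 0.80), Nxph4 from 0.667 to 1.76 and from 0.456 to 1.84 (-0.26 ± 0.46) and Clic5 from 0.0475 to 2.02 and from 0.274 to 1.90 (-0.29 ± 0.91). Every gene overlapped between the groups, and in each group the library with the most Ctgf was also the highest for Cplx3 and Clic5. The test called 7 of 17102 genes there (0.0409%), none of them a member by edgeR or DESeq2, and no member had an unadjusted p under 0.05.

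The Cas9-GFP and Stop-Cas9-GFP nuclei each had a single control, whose spread is assumed to be that of the KO samples. In Cas9-GFP nuclei Ctgf was at 1.19, 11.3, 2.43 and 17.6 CPM with guide 13, guide 3, all 3 guides and guide 4 and at 1.37 CPM with lacZ (2.55 ± 1.21, adjusted p = 0.62). In Stop-Cas9-GFP nuclei the same order of samples gave 14.5, 5.66, 2.00 and 2.09 CPM against 1.47 (2.03 ± 1.01, adjusted p = 1.00). Ctgf was above its control in 3 of 4 and in 4 of 4 KO samples, none of the values passed the test, and the guide with the highest value differed between the experiments.

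The remaining members were low in both. Cplx3 lay between 0.456 and 3.81 CPM in the Cas9-GFP KO nuclei against 1.67 in the control, and between 0.663 and 3.06 in the Stop-Cas9-GFP KO nuclei against 0.113, which was 1 count. Nxph4 lay between 0.798 and 3.20 against 2.16 and between 1.33 and 2.64 against 1.47 CPM. Clic5 stayed at or below 1.48 CPM in all 10 libraries, with 1 count in the Cas9-GFP control. The edgeR test called 0 of 19004 genes (0%) in Cas9-GFP nuclei, where 1560 had an unadjusted p under 0.05 and DESeq2 called 25, and 0 of 18777 (0%) in Stop-Cas9-GFP nuclei, where 459 did and DESeq2 called 1. No member was called by DESeq2 in either experiment and none had an unadjusted p under 0.05.

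The lists told little more outside the Emx1-Cre animals. Over the 5 bulk experiments the 10 other layer 6b genes gave 45 tests and no call, the CCN family 17, the complexins 10, the neurexophilins 13, the CLIC family 15, the SNARE partners 49, the neurexins and neuroligins 30 and the ezrin partners 31, each without a call by edgeR, and the Hippo-YAP list 62 with Tead4 alone. DESeq2 called 1 gene of the neurexins and neuroligins in Trim28-flox nuclei and no other gene of these lists beyond that of the NPCs.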

How the data were processed

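Whole-tissue, culture and sorted-nuclei RNA and the single nuclei were deposited as raw counts. Per the file headers, the labels and the study's methods, the authors aligned bulk reads with STAR 2.6.0 to GRCm38.p6 and counted them per gene with featureCounts 1.6.3, and the nuclei matrices hold UMI counts from Cell Ranger 3.0. In each animal, nuclei more than 3 median absolute deviations from the middle value of the log10 number of detected genes were left out. They were clustered in Seurat 5.3.0 on 2000 variable genes without the 4 members, 20 components and resolutions of 0.1 and 1, and named by listed markers. Counts per library, or UMI sums per animal, were tested with edgeR 4.0.16 (quasi-likelihood, TMM, filterByExpr, Benjamini-Hochberg adjustment over all genes), in R 4.3.3. A call needed an adjusted p under 0.05 and an absolute log2 fold change above 0.5. DESeq2 1.42.0 and the other alternatives are in the closing section. Intervals are 95%. Those of shares and of UMI levels in the nuclei cover counting error only. Those of log2 fold changes come from the edgeR fit and reflect the spread between samples. The level of likeness was Pearson's r of log2(CPM + 1) over clusters. From each list the called genes (at most 4) or, with none called, the 2 of highest level are named, for the Emx1-Cre animals and, where called, the NPCs; 1 such gene is not reported here.

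The members and lists were chosen with earlier results of these data known. The series of NPC culture numbers paired the samples (deviations of same-series cultures correlated at 0.575 to 0.797 over 6 pairs of guide groups), so the blocked count of calls is given beside the other. Unless the block is named, NPC log2 fold changes, SE and adjusted p are of the fit without it. Their spread includes the difference between the series. Nothing in the labels says whether NPC cultures came from separate embryos, so p-values there measure the spread between these samples. In data simulated for Emx1-Cre cortex (16271 genes) the test recovered 76% of genes changed by 1 and 98% of those changed by 2 on the log2 scale, and in those for all nuclei (17400 genes) 64% and 95%. Recovery was 12% and 78% for the NPCs, 24% and 56% for Cas9-GFP nuclei and 57% and 91% for Trim28-flox nuclei. Of the genes called in the simulations, 9.66% were false for all nuclei, 6.45% for Emx1-Cre cortex, 4.26% for the NPCs and 5.73% for Trim28-flox nuclei. The H3K9me3 CUT&RUN data were not used here.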

Additional observations from a re-analysis of the deposited data

Results flagged for a closer look

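Cplx3 in the NPCs was flagged because 1 KO culture with guide 13 stood far from the other 5. It had 0.0961 CPM, which is 1 read, and the others had none. Outlying samples were looked for in 20 groups of 4 to 10 samples, and chance flags about 1 group in 20.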

How the results depend on the processing

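Apart from fits that leave out a library, 131 values kept their direction and side of the threshold, 29 moved, 5 reversed, 2 became stronger and 2 weaker. The causes were not tested. The share of nuclei with UMIs for at least 2 members (KO 60, KO 73, control 64, control 65) was 0%, 0%, 0.336% and 0.291% after thinning, 1.28%, 0%, 7.57% and 4.99% of the layer 6-like clusters, an alternative chosen after seeing the data, 0.352% and 0.261% in the controls and 0% in KO 73 for at least 3 members, and 2.07% and 1.46% in the controls and 0% in KO 73 among excitatory nuclei. The level of Nxph4 over all nuclei was -2.31 with relative log expression normalization. In excitatory nuclei without the layer 6b-like cluster, chosen after seeing the data, Ctgf was at -1.12, Clic5 at -0.87 and Cplx3 at 0.083. The planned fits within the nuclei with at least 2 members give no result, since 1 KO animal had such excitatory nuclei.

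In bulk, Ctgf was at 2.56 (adjusted p = 0.029) and 1 member was called in Cas9-GFP nuclei with no filter on low counts. In Trim28-flox nuclei Ctgf, near 0, was at -0.011 with DESeq2, -0.00062 with relative log expression normalization and -0.011 with the number series as replicate block, and Clic5 in the NPCs was at 0.094 with that block. Genes called came to 546 in Emx1-Cre cortex with no filter, to 146 (DESeq2) and 136 (block) in NPCs, to 25 (DESeq2), 131 (no filter) and 4 (TEtranscripts counts) in Cas9-GFP nuclei, to 1, 18 and 1 in Stop-Cas9-GFP nuclei, to 37, 19, 11 and 20 (block) in Trim28-flox nuclei, and to 1315 over all nuclei (DESeq2). The block changed no other call of a member.

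Leaving out 1 library at a time gave these ranges. In Emx1-Cre cortex Ctgf ran from -0.24 to 0.14 and Cplx3 from -0.30 to 0.17, positive without control 65 or KO 73, and genes called from 104 to 344. In NPCs Ctgf ran from -1.36 to 1.28 and Clic5 from -0.71 to 1.16, each end resting on 1 control, with 2 to 58 genes called. In Cas9-GFP nuclei Cplx3 ran from -0.89 to 0.27 and Nxph4 from -0.55 to 0.070 (0.26 for Cplx3 without guide 13, 0.018 for Nxph4 without the 3 guides together), with 0 to 7 genes called, and the lone control there and in Stop-Cas9-GFP nuclei could not be left out. In Trim28-flox nuclei Ctgf ran from -0.84 to 0.47, Cplx3 from -0.80 to 0.71 and Clic5 from -1.68 to 0.37, the ends being the fits without the highest library of a group. Over all nuclei Nxph4 ran from -2.70 to -1.99, and genes called from 371 without KO 73 to 2906 without control 64. In excitatory nuclei Ctgf ran from -4.21 to -2.54, Clic5 from -2.48 to -1.77 and Nxph4 from -3.36 to -2.78, with 0 to 269 genes called. Few molecules limit the KO values of Nxph4 and the shares in KO animals, and 2 animals a group limit every nuclear comparison.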
